A study of Mus musculus with 16 samples.

Results

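RNA bound by the antibody J2 was compared with the RNA left unbound, in testis of wild-type mice at postnatal day 18 (P18). J2 is a mouse monoclonal antibody to double-stranded RNA (dsRNA), and the unbound RNA is called flow-through here. The 5567 genes described were those of 35920 in the table, or 15.5%, with a normalized value of at least 10 in 2 or more of the 6 libraries, 3 J2 and 3 flow-through. The 6 libraries came from C57BL/6 x 129S4/SvJae wild-type testis, labelled dsRNA for J2 and depleted of ribosomal RNA (rRNA) and dsRNA for flow-through. The same comparison was read in P18 testis of the same strain labelled Dcr-/- (Dicer knock-out, 3 libraries per fraction) and in adult wild-type testis of unstated strain (2 per fraction). The labels name no promoter or cell type for the deletion, nor whether animals were pooled. As rRNA depletion is named for flow-through and not for J2, depletion and J2 binding cannot be told apart at rRNA features, mitochondrial ones included. Libraries of the 2 fractions share codes, and nothing says that replicates came from separate animals. The limma p-values therefore measure a spread between libraries that may be technical, pooled over all 6 groups (16 libraries).

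Long dsRNA forms where transcripts of both strands of a locus pair, or where 1 transcript folds back on itself, as in inverted repeats. J2 binds the double helix with little regard to its sequence, and is used to collect such RNA. In mammals the mitochondrial genome, transcribed in full on both strands, is a known source of long dsRNA. Dicer cuts long dsRNA and microRNA precursors, and P18 testis holds spermatogonia, meiotic spermatocytes and somatic cells but few or no elongating spermatids. In bulk RNA, fewer cells of a type and less RNA per cell cannot be told apart.

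The 2 microRNA loci at which the fractions differed are shown first. Both lie among the features with the largest share of flow-through signal. The mature sequences are from RefSeq (GRCm38.p6), with the seed, bases 2 to 8, in capitals, and the hairpin of Mir6240 has its mature sequence in capitals.
miR-6236, chr9:110281353-110281371, plus strand: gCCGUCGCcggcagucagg
miR-6240, chr5:114851973-114851998, plus strand: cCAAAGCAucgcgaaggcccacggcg
Mir6240 hairpin, chr5:114851948-114852064, plus strand: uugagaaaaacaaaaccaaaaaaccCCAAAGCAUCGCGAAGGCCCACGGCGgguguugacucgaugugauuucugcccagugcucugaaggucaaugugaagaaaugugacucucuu
Only 4 of the 1188 microRNA loci in the table were tested, the other 2 being Mir1983 and Mir7241, and no 2 of the 4 shared a seed. RNAfold's predicted fold of the Mir6240 hairpin had 34 base pairs, of which at most 5 followed each other without a break, while that of Mir1983 had 41 pairs and an unbroken run of 17. Mir1983, which stands for the hairpin with the longest predicted stem, was at 0, 25.7 and 0 in the J2 libraries and at 12.4, 0 and 0 in flow-through (log2 difference 0.33, SE 1.32, adjusted p = 0.924). Mir7241 was at 0 in all 3 J2 libraries and at 12.5, 0 and 18.8 in flow-through, and was not called.

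The table holds the authors' normalized counts, and differences are of log2(value + 1), J2 minus flow-through, tested with limma over all 5567 genes. J2 libraries summed to 0.446 to 0.577 M units and flow-through libraries to 6.05 to 10.3 M. The low values step by what 1 read is worth, about 0.200 to 0.426 units in J2 and 2.0 to 8.31 units in flow-through. These steps put the depth at about 1.23 to 2.89 M reads in J2 and 0.998 to 3.02 M in flow-through. A value of 10 therefore stands for 23.5 to 50.02 reads in J2 but 1.20 to 4.99 reads in flow-through, and a gene at 0 in flow-through is held to that coarser limit. Replicates were loosely alike across genes, which are not independent replicates, with Spearman's rho of 0.287 to 0.361 among J2 libraries, 0.295 to 0.414 among flow-through libraries and 0.104 to 0.255 between fractions.

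Of the genes tested, 94 were higher in J2 (1.69%) and 60 were lower (1.08%) at a limma adjusted p under 0.05, while 1100 had an unadjusted p under 0.05. In every one of the 94 all J2 libraries lay above all flow-through libraries, and in every one of the 60 all lay below, against 570 (10.2%) and 598 (10.7%) of all genes tested. The calls were made on these same libraries, so this separation adds no support to them. The higher genes differed by 2.40 to 6.79 on the log2 scale, with a median of 4.36, and the lower ones had a median of -4.77. To 2 digits the 60 lower genes had 55 distinct sets of values, so some of these calls repeat each other. The higher genes included 16 mRNAs of ribosomal proteins, 5 snoRNAs and 4 mRNAs of the proteasome, and the lower ones 7 rRNA-related and dominant features and 7 mitochondrial RNAs. The authors' scaling sets the median gene near 0 (0.01), while setting all libraries to equal sums moved that median to 2.77 and the calls to 2673 higher and 11 lower. These sums left out the mitochondrial genes, and 1 was again added to each rescaled value before taking log2. Equal sums raise J2 against flow-through at every gene, so all 94 higher genes had to stay above 0 there, at 5.11 or more. Of the 60 lower genes 50 stayed below 0.

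**Figure D1:**
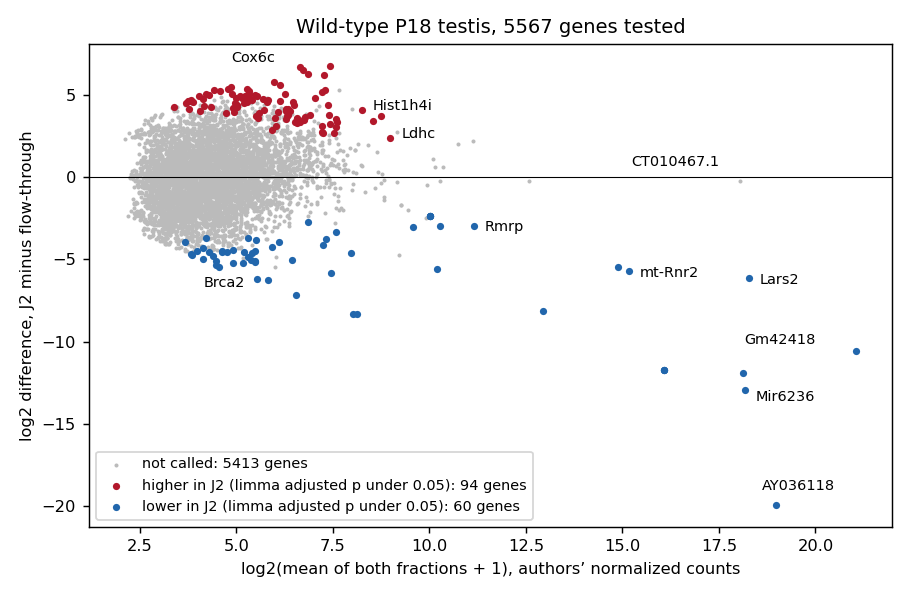
Log2 difference (J2 minus flow-through) of the 5567 genes tested against the log2 of their mean normalized count, with the 94 genes higher in J2 in red and the 60 lower in blue. The lower genes reach the highest values on the x axis, where Gm42418 and AY036118 lie, and the higher genes lie between 2.40 and 6.79 on the y axis.

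The filter bears on these counts. Of the 94 higher genes, 62 reached the filter through their J2 libraries alone, and 38 of the 60 lower ones through flow-through alone, so such genes had to differ in that direction. Among the 1810 genes that passed in both fractions, 32 were higher and 22 lower, with a median of 0.22. At 16 of the higher genes every flow-through library was at 0, and against 3 reads per library there, 16.3 units on average, they were at least 1.16- to 4.04-fold higher. At 9 of the lower genes every J2 library was at 0, against a limit of 0.928 units, and they were at least 28.3- to 1119480-fold lower in the authors' units. In those units 1 flow-through read is worth 2.0 to 8.31, so a few reads there give a large bound. Counting error in flow-through is left out of these bounds. Of these genes only AY036118 stayed called with all libraries set to equal sums. The highest bound is that of AY036118, and whether its 0 reflects how reads were assigned between overlapping genes was not tested. With only the 6 libraries fitted, 22 of the 94 and 23 of the 60 stayed called. With 3 libraries a side, leaving out any 1 of the 6 cost many calls: 14 higher and 19 lower genes were called in all 6 such fits. For the other called genes described below, the libraries whose omission ended a call are given, in full or in part.

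Most features with the largest shares of flow-through signal were far lower in J2 in the authors' units. Some still ranked high in J2: Gm42418 held 0.776% and Lars2 1.27% of its signal, beside 52.2% and 7.69% of flow-through (means of 3 libraries). Gm42418, a synonym of the pseudogene Rn18s-rs5 related to 18S rRNA (chromosome 17, 39846354 to 39848202, GRCm38.p6), was at 6038, 571 and 6009 in J2 and at 6210810, 3198690 and 3591390 in flow-through, the highest value of each flow-through library. Its log2 difference was -10.56 (SE 0.84, limma adjusted p = 4.7e-11). AY036118, a noncoding transcript on the minus strand that overlaps the end of Gm42418 (39848112 to 39898385), was at 0 in all 3 J2 libraries and at 990158, 772427 and 1352620 in flow-through, while Gm42418 was above 0 in every J2 library. Mir6236 was at 61.6, 47.3 and 129 in J2 and 798337, 415848 and 567621 in flow-through (-12.94, SE 0.61, adjusted p = 4.5e-17). Mir6240 was at 224, 52.9 and 181 in J2 and 976141, 302925 and 437746 in flow-through (-11.93, SE 0.67, adjusted p = 3.3e-15). At Gm42418, AY036118, Mir6236 and Mir6240 every flow-through library lay far above every J2 library. Whether reads at Mir6236 and Mir6240 came from microRNAs or from rRNA was not tested, nor was the part of rRNA depletion in these differences.

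Lars2, the mitochondrial leucyl-tRNA synthetase gene (chromosome 9, 123366927 to 123462675), was at 7089, 5183 and 7501 in J2 and at 307106, 238481 and 1341320 in flow-through (-6.15, SE 1.14, adjusted p = 0.0015). After quantile normalization its difference was 1.51 (adjusted p = 0.53), and with all libraries set to equal sums -2.19 (adjusted p = 0.13). Gm23935, listed with the same values as Gm24245 and Gm24270, was at 15.9, 72.1 and 48.1 in J2 and at 106515, 164385 and 144381 in flow-through (-11.76, SE 0.61, adjusted p = 3e-16). Gm26917 (3.50, 82.3 and 258 in J2, 2011, 1703 and 3017 in flow-through) and AA474408 (63.5, 23.9 and 41.0 in J2, 27005, 3554 and 16287 in flow-through) were lower by 5.57 and 8.16. In the list of rRNA-related and dominant features 7 of 8 members tested fell and 0 rose, with a median of -11.16 beside 0.01 for all genes. That list was drawn up with these data known and holds features that dominate flow-through, so its count and median are description only. The exception was CT010467.1, which has no entry in the annotation used. It was at 247209, 168802 and 352478 in J2 and at 338328, 290197 and 224021 in flow-through (-0.19, SE 0.81, adjusted p = 0.93). It alone held 48.8% ± 11.7 of the J2 signal and 3.59% ± 1.08 of the flow-through signal (SD, n = 3 each), and its difference was 5.35 (adjusted p = 0.0025) after quantile normalization and 3.76 (adjusted p = 0.014) with all libraries set to equal sums.

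A 5.8S rRNA gene was higher in J2, and the part of rRNA depletion in this was not tested. The 5.8S rRNA gene n-R5-8s1, named after its values were seen, was at 164, 611 and 287 in J2 and at 39.8, 21.1 and 18.5 in flow-through (log2 difference 3.56, SE 0.97, adjusted p = 0.04), a call that ended whichever library was left out (3.07 to 4.01, adjusted p = 0.0592 to 0.143). The 5S rRNA was listed 32 times with the same 6 values, and none of these copies was called. The share of signal at the 10 highest features of each library was 54.6% ± 11.2 in J2 and 96.5% ± 0.735 in flow-through (SD over 3 libraries each, exact permutation test, two-sided, p = 0.1, which 3 against 3 cannot go below).

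As the authors scaled the data, 7 of 15 mitochondrial rRNAs and mRNAs fell in J2 and 0 rose, but these calls depended on the scaling. Quantile normalization gave 5 falls and 1 rise among the 12 heavy-strand mRNAs, and equal library sums gave 0 falls and 3 rises among them and 1 rise among the other 3. Both strands of the mitochondrial genome are transcribed as long precursors: the heavy strand gives the rRNAs and all mRNAs but mt-Nd6, which is read from the opposite strand. mt-Rnr1, the 12S rRNA (mitochondrial positions 70 to 1024), was at 1565, 1587 and 941 in J2 and at 44566, 71685 and 61179 in flow-through (log2 difference -5.45, SE 0.60, adjusted p = 1.4e-07). mt-Rnr2, the 16S rRNA (1094 to 2675), was at 1692, 1574 and 934 in J2 and at 54213, 85041 and 78615 in flow-through (-5.72, SE 0.72, adjusted p = 1.8e-06). Every flow-through library lay above every J2 library at both. Quantile normalization brought the differences to 0.15 and -0.51 (adjusted p = 0.95 and 0.78), and setting all libraries to equal sums to -1.49 and -1.76 (adjusted p = 0.12 each), against a shift of the median gene to 2.77 there.

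Of the 12 heavy-strand mRNAs 5 fell (beside 1.08% of all genes) and 0 rose, with a median of -2.47. Those called encode subunits of complex I (mt-Nd1, mt-Nd2, mt-Nd4), cytochrome b of complex III and subunit 8 of ATP synthase. mt-Nd4 was at 4.67, 0 and 29.0 in J2 and at 263, 549 and 205 in flow-through (-5.81, SE 1.0, adjusted p = 0.00053). mt-Cytb was at 7.74, 12.02 and 45.5 in J2 and at 193, 762 and 485 in flow-through (-4.58, SE 0.81, adjusted p = 0.00074). mt-Nd1 was at 241, 89.1 and 208 in J2 and at 1205, 1698 and 1134 in flow-through (-3.0, SE 0.63, adjusted p = 0.0062), and these 3 calls held in all 6 fits without a library. The J2 and flow-through libraries do not overlap at any of them. mt-Nd2 (18.3, 46.7 and 35.5 in J2, 310, 544 and 190 in flow-through) differed by -3.30 (SE 0.77, adjusted p = 0.017), and the call was lost without flow-through replicate 1 or 2 or J2 replicate 1 (-3.67 to -2.92 over all 6 fits, adjusted p up to 0.0674). mt-Atp8 (5.09, 5.34 and 59.2 in J2, 96.2, 505 and 239 in flow-through) differed by -4.10 (SE 1.0, adjusted p = 0.023), and the call was lost without flow-through replicate 2 or 3 or J2 replicate 1 or 2 (-5.19 to -3.53, adjusted p up to 0.0964). After setting all libraries to equal sums the median of the 12 mRNAs was 1.17, below the 2.77 of all genes, and mt-Nd1 and mt-Nd2 turned to 0.95 and 0.60, neither of them called.

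The cytochrome c oxidase mRNA mt-Co1 was not called as the authors scaled the data, at 784, 1451 and 1938 in J2 and at 574, 974 and 1028 in flow-through (0.65, SE 0.69, adjusted p = 0.64), and the fractions overlap. It was called higher in J2 after quantile normalization (3.13, adjusted p = 0.034) and with all libraries set to equal sums (4.59, adjusted p = 0.00013). The genes of mt-Nd5 and mt-Nd6 overlap end to end on opposite strands, and as the authors scaled the data neither was called. mt-Nd5, on the heavy strand (11742 to 13565), was at 201, 127 and 134 in J2 and at 142, 414 and 221 in flow-through (-0.64, SE 0.69, adjusted p = 0.64). mt-Nd6, the mRNA of the light strand (13552 to 14070), was at 11.8, 21.3 and 37.7 in J2 and at 31.7, 68.1 and 35.4 in flow-through (-0.97, SE 0.81, adjusted p = 0.52). In the Dcr-/- testis mt-Nd6 differed by 1.22 and in adults by 2.82. mt-Co2 was scattered (0, 212 and 141 in J2, 13.5, 200 and 641 in flow-through), and its difference turned from -1.99 to 0.49 without J2 replicate 1. Only 1 of the 22 mitochondrial tRNAs passed the filter. The share of signal at mitochondrial genes was 0.999% ± 0.215 in J2 and 1.82% ± 0.857 in flow-through (SD over 3 libraries each, exact permutation test, two-sided, p = 0.2). The difference of these shares moved from -0.816 to -39.1 percentage points once the 10 highest other features were left out.

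**Figure D2:**
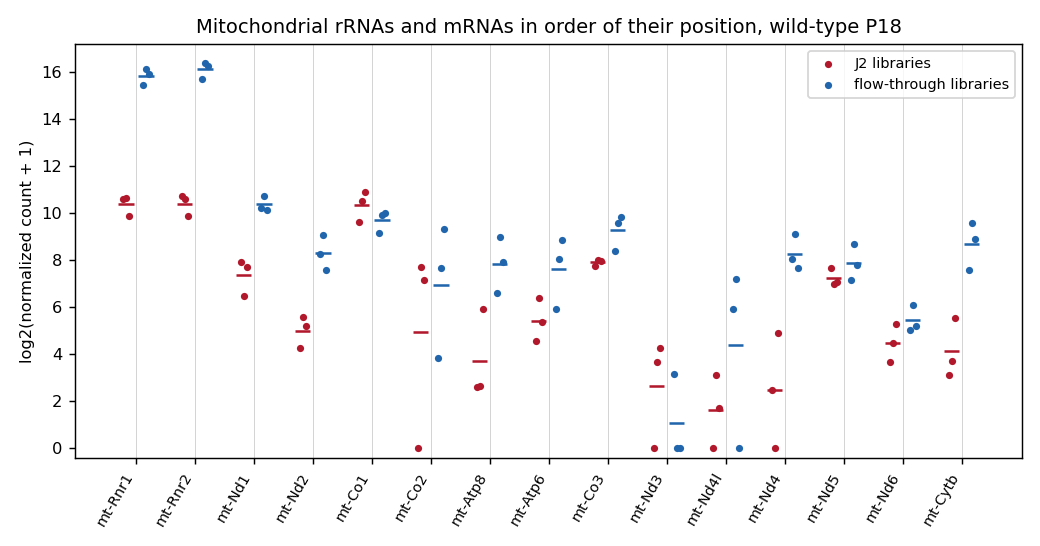
Log2(normalized count + 1) of the 15 mitochondrial rRNAs and mRNAs in each J2 library (red, left) and flow-through library (blue, right), in order of their place in the genome, with a line at the mean of each fraction. The means lie farthest apart at mt-Nd4, mt-Rnr2 and mt-Rnr1, and the libraries of the fractions overlap at mt-Co1.

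Small nucleolar RNAs (snoRNAs) stood among the largest rises. Snord118, the U8 snoRNA, which acts in the processing of 5.8S and 28S rRNA (chromosome 11, 69073426 to 69073562), was at 214, 361 and 101 in J2 and at 15.6, 0 and 0 in flow-through (log2 difference 6.29, SE 1.10, adjusted p = 0.00064). Gm26493, annotated as a snoRNA (chromosome 8, 95746060 to 95746195), was at 240, 220 and 159 in J2 and at 0, 0 and 9.20 in flow-through (6.56, SE 1.14, adjusted p = 0.00057). Gm24601, which the annotation used does not list, was at 227, 447 and 242 in J2 and at 3.49, 0.693 and 6.89 in flow-through (6.22, SE 1.0, adjusted p = 0.00019). These 3 were called in all 6 fits without a library. With a pseudocount of 10, nearer to the worth of a few flow-through reads, Snord118 and Gm26493 differed by 3.94 and 4.10, and both stayed called.

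H/ACA box snoRNAs guide the conversion of uridine to pseudouridine. Snora64 was at 132, 241 and 29.9 in J2 and at 7.67, 0 and 0 in flow-through (5.60, SE 1.29, adjusted p = 0.017), a call lost without flow-through replicate 3 or J2 replicate 1 or 2 (4.96 to 6.64, adjusted p up to 0.088). Snora24 was at 13.7, 61.8 and 36.7 in J2 and at 0 in all 3 flow-through libraries (adjusted p = 0.028), at least 2.30-fold higher. Its call ended without any 1 of the flow-through libraries or J2 replicate 2 or 3 (4.56 to 5.60, adjusted p up to 0.0912). In the lists 1 of 6 C/D box snoRNAs tested and 2 of 15 H/ACA box and Cajal body RNAs rose, beside 1.69% of all genes, and 0 of either fell. By annotation, which counts Gm26493 too, 5 of 30 snoRNAs rose. The list medians were 2.89 and 2.07, but 0.37 and 0.04 among the members that passed the filter in both fractions, where 0 rose. The list members that rose passed the filter through J2 alone, as did 1235 of all genes tested, of which 5.02% rose.

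Among the longer structured RNAs listed 3 fell. Rmrp, the RNA of RNase MRP (chromosome 4, 43492785 to 43493059), was at 237, 1124 and 486 in J2 and at 3304, 4262 and 4326 in flow-through (-2.96, SE 0.71, adjusted p = 0.02). Rpph1, the RNA of RNase P (chromosome 14, 50807447 to 50807771), was at 140, 331 and 383 in J2 and at 2439, 1314 and 2790 in flow-through (-2.99, SE 0.73, adjusted p = 0.024). Rnu2-10, a U2 spliceosomal RNA, was at 239, 172 and 673 in J2 and at 2734, 1103 and 1263 in flow-through (-2.36, SE 0.61, adjusted p = 0.032). Each call ended without 4 of the 6 libraries. They were flow-through replicates 2 and 3 and J2 replicates 1 and 3 for Rmrp (-3.53 to -2.41, adjusted p up to 0.099), and flow-through replicates 1 and 3 and J2 replicates 1 and 2 for Rpph1 (-3.32 to -2.54, up to 0.103) and Rnu2-10 (-2.94 to -1.96, up to 0.152). After setting all libraries to equal sums all 3 differences were above 0 (1.0, 0.97 and 1.59) and below the 2.77 of the median gene. These 3 were the only called members of the 17 U3, spliceosomal and other structured RNAs. Outside the list Gm23849, Gm23971 and Gm24950 were also called lower, with nearly the difference of Rnu2-10 (-2.32 each with a pseudocount of 10). These calls may therefore rest on the same reads as that of Rnu2-10. The list median was 2.16, but 0.21 among the 11 members that passed the filter in both fractions. The abundant Gm24265, annotated only as a small nuclear RNA, was at 3743, 3958 and 3062 in J2 and at 1096, 328 and 1175 in flow-through (2.25, SE 0.76, adjusted p = 0.096), without overlap and short of the threshold. It was past the threshold after quantile normalization (5.98, adjusted p = 1.1e-06) and with equal library sums (6.19, adjusted p = 4.5e-07).

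Of the mRNA lists the ribosomal proteins gave the most calls. Of 81 tested, 16 rose (19.8%, beside 1.69% of all genes) and 0 fell, 70 had a difference above 0, and the median was 1.82. Of the 51 that passed the filter in both fractions 7 rose and the median was 1.55, beside 0.22 for all such genes. The summed value of the 81 was 9070, 8230 and 6506 in the J2 libraries and 2191, 1862 and 2843 in flow-through, without overlap. The rises numbered 6 to 12 without 1 library. The median was 1.49 after quantile normalization and 5.01, beside 2.77 for all genes, with all libraries set to equal sums. Ribosomal protein genes have many processed pseudogenes, which makes these values uncertain where reads fit several copies, and the 3 such pseudogenes tested were not called.

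Rps15, of the small subunit, was at 463, 275 and 188 in J2 and at 8.16, 5.16 and 5.91 in flow-through (log2 difference 5.31, SE 0.88, adjusted p = 0.00029). Rpl31, of the large subunit, was at 162, 163 and 42.5 in J2 and at 0, 5.15 and 0 in flow-through (5.84, SE 1.13, adjusted p = 0.0023). Rpl10 was at 29.0, 51.7 and 42.0 in J2 and at 0 in flow-through (adjusted p = 0.0089), at least 2.51-fold higher, and these 3 calls held in all 6 fits without a library. With only the 6 libraries fitted Rpl10 was not called (adjusted p = 0.12). Other members were above 0 in every flow-through library. Rps26 was at 315, 274 and 332 in J2 and at 27.1, 24.8 and 46.5 in flow-through (3.24, SE 0.75, adjusted p = 0.017), a call lost without flow-through replicate 1 (adjusted p = 0.0608). Rpl23a was at 245, 272 and 280 in J2 and at 23.3, 31.5 and 34.1 in flow-through (3.14, SE 0.75, adjusted p = 0.019), a call lost without flow-through replicate 1 or 3 or J2 replicate 2 (adjusted p up to 0.0801).

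Rpl14, Rpl7, Rps3 and Rpl4 differed by 3.80, 3.08, 3.38 and 2.69 (adjusted p = 0.017, 0.02, 0.025 and 0.039). Rps3 was at 185, 174 and 138 in J2 and at 17.3, 12.5 and 15.1 in flow-through. The call of Rpl14 ended without flow-through replicate 2 or J2 replicate 1, that of Rpl7 without flow-through replicate 2 or 3 or J2 replicate 1 or 2, that of Rps3 without any library but J2 replicate 3, and that of Rpl4 without any 1 library (adjusted p up to 0.0655, 0.0782, 0.0688 and 0.11). The other rises, Rpl35, Rps23, Rpl6, Rps27a, Rpl11 and Rpl37, had at least 1 flow-through library at 0 and differed by 3.93 to 4.78. Each of these calls ended without flow-through replicate 3 and J2 replicate 2, among others (adjusted p up to 0.229). Rps6, the member with the highest mean, was at 562, 169 and 240 in J2 and at 57.9, 60.8 and 92.5 in flow-through (2.03, SE 0.70, adjusted p = 0.1).

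**Figure D3:**
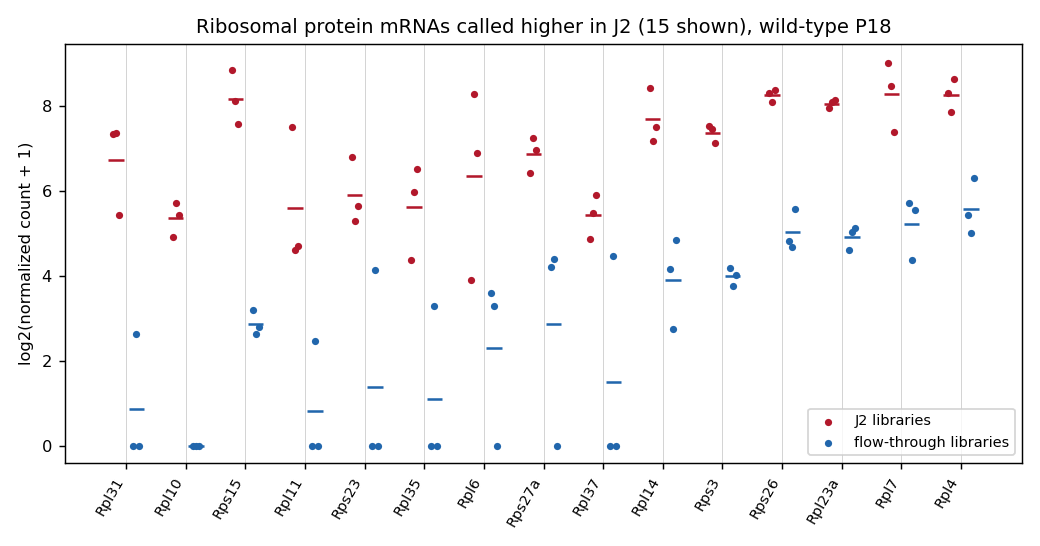
Log2(normalized count + 1) of 15 of the 16 ribosomal protein mRNAs called higher in J2, in each J2 library (red, left) and flow-through library (blue, right), with a line at the mean of each fraction. Every J2 library lies above every flow-through library at each gene, and many of the flow-through libraries lie at 0.

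Of 33 mRNAs of initiation and elongation factors, which load and move the ribosome, 0 were called and the median was 0.44. After quantile normalization 1 of them rose, and with all libraries set to equal sums 27 rose. Eef1a1, which brings aminoacyl-tRNA to the ribosome, was at 1470, 1688 and 1321 in J2 and at 584, 600 and 941 in flow-through (1.10, SE 0.56, adjusted p = 0.27), and Eef2, which drives translocation, was at 94.1, 148 and 126 in J2 and at 351, 194 and 266 in flow-through (-1.12, SE 0.61, adjusted p = 0.31). The fractions do not overlap at either, in opposite directions, and Eef2 turned to 2.80 with all libraries set to equal sums. Eef1a1 was called higher in J2 after quantile normalization (4.56, adjusted p = 0.00014) and with equal sums (5.05, adjusted p = 2.9e-06). Of 45 mitochondrial ribosomal protein mRNAs 0 were called, with a median of 1.36, or 0.83 among the 5 that passed the filter in both fractions.

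Nuclear genes of the respiratory chain had a median of 1.61, with 52 of 64 above 0, but 2 rose (beside 1.69% of all genes) and 0 fell. Cox6c, a subunit of cytochrome c oxidase (chromosome 15, 35931976 to 35938246), was at 234, 184 and 175 in J2 and at 0, 5.68 and 0 in flow-through (log2 difference 6.71, SE 1.10, adjusted p = 0.00028), and at 4.15 with a pseudocount of 10. Ndufs4, of complex I, was at 56.9, 72.7 and 36.6 in J2 and at 4.14, 6.64 and 0 in flow-through (4.0, SE 1.13, adjusted p = 0.046), a call lost without flow-through replicate 1 or 3 or any 1 J2 library (3.12 to 4.58, adjusted p up to 0.186). The median of the list was 0.83 among members that passed in both fractions, where 0 rose.

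The proteasome, which degrades ubiquitinated proteins, had 4 rises (beside 1.69% of all genes) and 0 falls among 33 mRNAs, with a median of 1.10. The rises numbered 1 to 3 without 1 library and 1 with only the 6 libraries fitted. Of the 18 members that passed the filter in both fractions 2 rose, and their median was 0.87. Psmb1, a subunit of the core particle, was at 285, 262 and 207 in J2 and at 2.42, 8.14 and 20.02 in flow-through (4.85, SE 0.91, adjusted p = 0.0016), and its call held in all 6 fits. Psma6, of the outer rings of the core, was at 115, 98.2 and 102 in J2 and at 11.7, 11.96 and 16.7 in flow-through (2.89, SE 0.81, adjusted p = 0.045). Psmc2 and Psmd7, of the regulatory particle, differed by 4.06 and 3.60 (adjusted p = 0.029 and 0.045). The calls of Psma6 and Psmd7 ended without any 1 library (adjusted p up to 0.12 and 0.13), and that of Psmc2 without flow-through replicate 1 or any 1 J2 library (2.56 to 4.86, up to 0.192).

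Among 58 replication-dependent histone genes 2 rose (beside 1.69% of all genes) and 0 fell, with a median of 0.66. Hist1h4i, an H4 gene (chromosome 13, 22040960 to 22041362), was at 720, 548 and 456 in J2 and at 38.7, 22.1 and 36.4 in flow-through (log2 difference 4.12, SE 0.89, adjusted p = 0.0086) and held in all 6 fits. Its neighbour in kind Hist1h4h was at 288, 1307 and 457 in J2 and at 62.1, 27.5 and 72.1 in flow-through (3.46, SE 0.87, adjusted p = 0.027), and lost its call without any library but J2 replicate 1 (adjusted p up to 0.124). The histone with the largest share of J2 signal was not called. Hist1h2ba, a testis H2B, was at 7414, 4777 and 4167 in J2 and at 10274, 3697 and 6455 in flow-through (-0.24, SE 0.66, adjusted p = 0.88), and its sign depended on the scaling (4.93 after quantile normalization, 3.71 with all libraries set to equal sums, both called). Histone genes have near-identical copies, which makes these values uncertain.

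Of 11 mRNAs of dsRNA-binding and editing proteins tested 1 rose and 1 fell, with a median of -0.52. Stau2, a Staufen protein that binds duplexes in mRNAs and carries them (chromosome 1, 16228803 to 16520332), was at 0 in all 3 J2 libraries and at 39.0, 11.9 and 75.7 in flow-through (adjusted p = 0.033), at least 45.5-fold lower in the authors' units. It lost its call without flow-through replicate 1 or 3 or any 1 J2 library (-5.79 to -4.51, adjusted p up to 0.124). With all libraries set to equal sums Stau2 differed by -2.41 and was not called (limma adjusted p = 0.094). Son, a splicing cofactor with a dsRNA-binding domain, was at 281, 315 and 178 in J2 and at 41.3, 31.2 and 35.4 in flow-through (2.78, SE 0.77, adjusted p = 0.043), a call that ended without any 1 library (2.62 to 3.02, up to 0.117). Son and Donson overlap on opposite strands. Dhx30, an RNA helicase, was at 13.1, 23.6 and 12.5 in J2 and at 111, 137 and 72.5 in flow-through without overlap (-2.64, SE 0.83, adjusted p = 0.076).

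Dicer1 was low in both fractions, at 11.3, 0 and 8.64 in J2 and at 5.10, 12.4 and 0 in flow-through (log2 difference 0.18, SE 1.43, adjusted p = 0.96). Drosha, which releases microRNA precursors in the nucleus, was at 6.23, 0 and 6.90 in J2 and at 20.04, 13.7 and 53.4 in flow-through (-2.74, SE 1.14, adjusted p = 0.18). Of the 7 genes of the Dicer, Drosha and Argonaute list that were tested 0 were called and 6 lay below 0, with a median of -1.60 that became 1.72 with all libraries set to equal sums, below the 2.77 of all genes. None of these 7 passed the filter in both fractions.

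**Figure D4:**
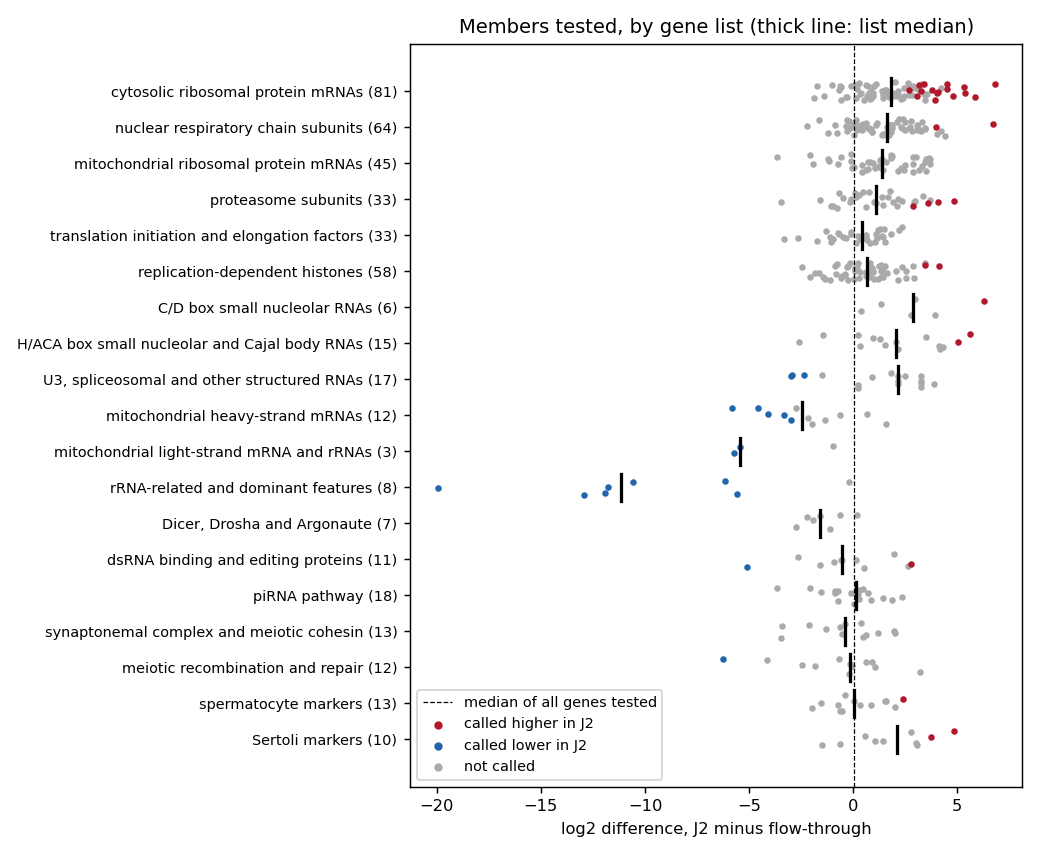
Log2 difference (J2 minus flow-through) of each member tested, by gene list with the number of members in brackets, called genes in red (higher) or blue (lower), a thick line at the list median and a dashed line at the median of all genes (0.01). Ribosomal protein mRNAs hold 16 red points, and the rRNA-related list holds 7 blue points reaching -19.95.

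Genes of meiosis and of the germ line mostly stayed uncalled. Among 13 genes of the synaptonemal complex and meiotic cohesin and 18 of the piRNA pathway, which silences transposons in germ cells, 0 were called, with medians of -0.38 and 0.13. Stag3, a meiotic cohesin subunit, was at 529, 36.0 and 136 in J2 and at 72.7, 105 and 99.4 in flow-through (0.60, SE 0.76, adjusted p = 0.7), and Piwil1, a PIWI protein, was at 109, 97.6 and 25.8 in J2 and at 68.2, 72.1 and 51.9 in flow-through (0.04, SE 1.0, adjusted p = 0.99). Of 12 genes of recombination and repair 1 fell. Brca2, which loads recombinases on DNA breaks (chromosome 5, 150522297 to 150570147), was at 0, 0 and 1.85 in J2 and at 107, 77.9 and 148 in flow-through (-6.26, SE 1.47, adjusted p = 0.018), a call lost without flow-through replicate 1 or 3 or J2 replicate 1 or 2 (-6.76 to -6.0, up to 0.0703). With all libraries set to equal sums it differed by -3.18 and was not called (limma adjusted p = 0.0757).

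Single germ-cell mRNAs rose. Ldhc, the lactate dehydrogenase of germ cells, was at 554, 1345 and 692 in J2 and at 143, 190 and 127 in flow-through (2.40, SE 0.60, adjusted p = 0.026), the smallest rise called. It lost its call without flow-through replicate 1 or 3 or J2 replicate 2 (2.03 to 2.67, up to 0.0993). Its somatic relative Ldha was at 103, 181 and 142 in J2 and at 90.1, 99.2 and 137 in flow-through (0.37, SE 0.71, adjusted p = 0.81). Ybx3, which binds and stores germ-cell mRNAs, was at 618, 252 and 167 in J2 and at 24.97, 83.9 and 9.11 in flow-through (3.40, SE 0.81, adjusted p = 0.019), a call lost without flow-through replicate 1 or 3 or J2 replicate 1 (2.66 to 4.2, up to 0.124). Tex101, a germ-cell surface protein, and Spata33 differed by 2.74 and 4.61 (adjusted p = 0.044 and 0.019), the call of Tex101 ending without any 1 library (adjusted p up to 0.12) and that of Spata33 without flow-through replicate 3 or J2 replicate 2 (up to 0.124). Insl6, an insulin-family gene of testis, was at 105, 21.1 and 31.7 in J2 and at 0 in flow-through (adjusted p = 0.021), at least 3.24-fold higher, and was not called without flow-through replicate 1 or 3 or J2 replicate 1 (up to 0.0818).

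Markers of spermatocytes and somatic cells were present in both fractions. Of 15 spermatocyte markers 13 were tested, with summed values of 1113 to 2551 in J2 and 708 to 897 in flow-through, and only Ldhc was called. Of 15 spermatid markers only Acr passed the filter, the sums were 3.56 to 38.2 in J2 and 23.2 to 29.8 in flow-through, and Acrv1, Gapdhs and Spem1 were at 0 in all 6 libraries. The 19 Sertoli cell markers summed to 514 to 1230 in J2 and 318 to 391 in flow-through. The 10 that were tested had a median of 2.10, or 0.82 among the 6 that passed in both fractions, where 0 rose, and Amh was at 0 in all 6. Cldn11, a tight junction protein of Sertoli cells, was at 124, 17.4 and 39.0 in J2 and at 0, 3.04 and 0 in flow-through (4.83, SE 1.16, adjusted p = 0.02). Cst12, a testis cystatin, was at 62.2, 58.0 and 129 in J2 and at 10.2, 1.72 and 5.38 in flow-through (3.76, SE 1.01, adjusted p = 0.037). Cldn11 lost its call without flow-through replicate 1 or 3 or J2 replicate 1 (up to 0.0934), and Cst12 without any 1 library (up to 0.107). Clu, the Sertoli marker with the highest mean, overlapped between fractions (375, 110 and 268 in J2, 167, 135 and 144 in flow-through). None of the 7 Leydig, 8 peritubular myoid, 4 endothelial and macrophage, 4 red cell or 3 spermatogonial markers tested was called. The Leydig markers summed to 226 to 271 in J2 and 124 to 197 in flow-through, the myoid markers to 557 to 795 in J2 and 369 to 1318 in flow-through, and the red cell markers to 106 to 445 in J2 and 111 to 195 in flow-through. The endothelial and macrophage markers summed to 32.9 to 125 in J2 and 27.4 to 105 in flow-through, with Ptprc at 0 in all 6. The spermatogonial markers summed to 38.8 to 92.2 in J2 and 49.5 to 156 in flow-through. Both fractions were taken from 1 tissue by label, and the part of cell makeup in these differences was not tested.

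Other mRNAs with large rises belonged to no list. Mif4gd, which binds the protein that aids translation of histone mRNAs, was at 375, 115 and 372 in J2 and at 3.97, 5.01 and 9.57 in flow-through (log2 difference 5.22, SE 1.01, adjusted p = 0.0024), and it overlaps Mrps7 on the opposite strand. Dnajb3, a DnaJ co-chaperone gene that lies within the Ugt1a locus, was at 25.1, 113 and 90.8 in J2 and at 0, 6.32 and 0 in flow-through (5.06, SE 1.03, adjusted p = 0.0049). Both held in all 6 fits without a library, as did Mrfap1, named after its values were seen. With only the 6 libraries fitted Dnajb3 was not called (adjusted p = 0.113). Mrfap1 was at 394, 175 and 370 in J2 and at 24.97, 23.98 and 14.4 in flow-through (3.78, SE 0.72, adjusted p = 0.0022). Svbp (tubulin processing) was at 0 in all flow-through libraries and at least 3.43-fold higher, and Sf3b6 (the U2 particle of the spliceosome) and Coq9 (coenzyme Q synthesis) differed by 5.40 and 4.78 (adjusted p = 0.031 and 0.043). The calls of Svbp and Sf3b6 ended without flow-through replicate 1 or 3 or J2 replicate 2, among others, and that of Coq9 without any 1 library (adjusted p up to 0.0934, 0.0987 and 0.143).

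Several other mRNAs fell as well, as the authors scaled the data. With all libraries set to equal sums those named here stayed below 0, and none was called (limma adjusted p = 0.067 to 0.344). Kat6b, a histone acetyltransferase (chromosome 14, 21499216 to 21672478), was at 0, 1.25 and 4.54 in J2 and at 90.5, 48.3 and 118 in flow-through (log2 difference -5.13, SE 1.10, adjusted p = 0.0086), a call lost without flow-through replicate 3 (adjusted p = 0.0568). Focad, a focal adhesion protein gene, Ubr1, a ubiquitin ligase, and Arfgef2, a guanine exchange factor of vesicle traffic, differed by -5.20, -5.06 and -4.86 (adjusted p = 0.04, 0.034 and 0.039). Ncaph2, of condensin II, and Nup210, of the nuclear pore, were at 0 in all J2 libraries, at least 45.7- and 43.3-fold lower in the authors' units. The call of Ncaph2 ended without any 1 library (adjusted p up to 0.11), and those of the other 4 without 5 of the 6 (up to 0.143 for Focad, 0.139 for Ubr1, 0.115 for Arfgef2 and 0.146 for Nup210), each being kept without 1: flow-through replicate 2 for Focad, J2 replicate 3 for Ubr1, J2 replicate 1 for Arfgef2 and flow-through replicate 3 for Nup210. Hyou1, an endoplasmic reticulum chaperone named after its values were seen, was at 0, 0 and 3.60 in J2 and at 120, 44.4 and 40.9 in flow-through (-5.20, SE 1.03, adjusted p = 0.0032) and kept its call in all 6 fits without a library, but not with only the 6 libraries fitted (adjusted p = 0.103).

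The span of a gene on the chromosome, introns included, was set beside the calls as a description. Protein-coding genes that rose had a median span of 6.96 kb, those that fell 58.1 kb, and all tested 26.6 kb. Split into 4 classes by span, the shortest class (up to 11.1 kb) had 54 rises and 7 falls among 1319 genes, and the longest class (61.7 kb or more) had 3 rises and 17 falls among 1319. The median difference was 0.62, -0.07, -0.17 and -0.48 from the shortest to the longest class. Among genes that passed the filter in both fractions it was 0.59, 0.12, 0.22 and -0.05. Most calls passed the filter through 1 fraction, and among all kinds of genes that passed in both the median span was 0.956 kb for falls, 5.5 kb for rises and 22.5 kb for all. That value is void for falls, since 16 of the 22 had a span, and nothing is read from span for them. Transcript length was not at hand, and many ribosomal protein genes are short, so span, length and function cannot be told apart here. Genes with a neighbour overlapping on the opposite strand made up 20.6% of 68 rises, 32.3% of 31 falls and 29.0% of 4372 genes tested whose strand was known. That check is void, since strand was known for 72.3% of the rises and 51.7% of the falls.

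Most called genes had the same direction in the other testes, with medians nearer to 0. Of the 94 rises 92 were above 0 in Dcr-/- testis at P18, with a median of 2.43 (46.3% of all genes tested were above 0 there), and at 68 every J2 library lay above every flow-through library (9.16% of all). Of the 60 falls 55 were below 0 there, with a median of -2.70 (53.7% of all), and 39 did not overlap (12.5%). In adults 82 of the rises were above 0 (50.5% of all genes) and 50 of the falls below 0 (49.4%), with medians of 1.53 and -2.19. The genes were chosen for a large difference in wild type at P18, which favours smaller values elsewhere, and all groups entered 1 fit. Psmb1 differed by 4.80 in Dcr-/- and 4.92 in adult testis, Cox6c by 4.37 and 2.40, and Rpl10 by -0.53 and -0.81. Brca2, at -6.26 in wild type at P18, was at -0.90 in Dcr-/- and 0.45 in adult testis.

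**Figure D5:**
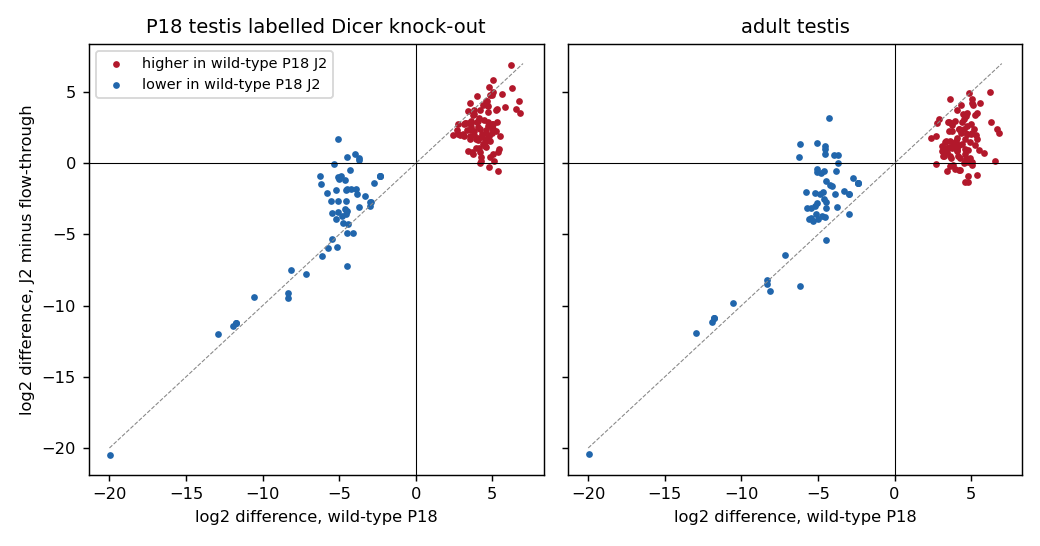
Log2 difference (J2 minus flow-through) in Dcr-/- testis at P18 (left) and adult testis (right), y axis, against that in wild-type testis at P18, x axis, for the 94 genes higher in J2 (red) and the 60 lower (blue). The dashed line marks equal differences, and 92 of the red points on the left and 82 on the right lie above 0.

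No gene was shown to differ between the testes in its J2 response. The interaction of genotype with fraction was called at 0 of the 5567 genes (0%) by limma, with 289 at an unadjusted p under 0.05 and a lowest adjusted p of 0.956. That of age with fraction was called at 0 genes (0%), with 294 at an unadjusted p under 0.05 and a lowest adjusted p of 0.513. Upf2, of nonsense-mediated decay and named after its values were seen, reached that lowest value. It was at 0, 0 and 3.56 in J2 and at 34.2, 22.8 and 38.6 in flow-through in wild type at P18 (-4.28, SE 1.09, adjusted p = 0.03), and at 368 and 50.7 in J2 and 15.4 and 13.1 in flow-through in adults. The adult difference minus that at P18 was 7.46 (SE 1.73, limma adjusted p = 0.513). The P18 call ended without any library but J2 replicate 3 (-5.01 to -3.91, adjusted p up to 0.0999). With all libraries set to equal sums the P18 difference was -1.36 and not called (limma adjusted p = 0.284).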

How the data were processed

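Libraries were made from total RNA with a strand-specific kit and sequenced on an Illumina instrument, per the labels' protocols. The table holds normalized signal, the authors' normalized counts per gene as deposited, 1 column per library. The submitters' processing notes name FastQC, Trimmomatic, Salmon, DESeq2 and the mm10 build, with no versions, roles or order. That scaling brings the median gene of both fractions together, so differences are relative to it. Because the values are not counts, limma 3.58.1 (R 4.3.3) was run on log2(value + 1) with a mean trend, 6 group means over 16 libraries, and Benjamini-Hochberg adjustment over the 5567 genes with at least 10 in 2 of the 6 libraries (two-sided, threshold 0.05). The fit was also run on simulated data with independent normal noise. Those data lack the zeros and read-sized steps of the table, so they cannot speak for genes near 0.

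Of 35920 genes 35446 had a symbol and 28211 matched a RefSeq gene (GRCm38.p6). Depth was read from the step between low values (tolerance 1e-05), and limits at 0 use 3 reads per library, for counting error only. Hairpins were folded with RNAfold 2.7.2. The members and lists were chosen with earlier results of these data known. Named genes were the 12 largest rises and falls without overlap and with a mean of at least 50, every called list member, up to 3 highest members per list, the mitochondrial RNAs, Dicer1 and the leading features. Codes shared by the fractions were not taken as pairs. Alternatives were other scalings, pseudocounts, filters and samples, a replicate block and leaving out each library. Some genes and 1 list are not reported here.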

Additional observations from a re-analysis of the deposited data

How the results depend on the processing

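The 94 rises kept their sign under every alternative that tested them, and the 60 falls did so except under quantile normalization (58) and equal library sums (50). The fractions do not overlap at these genes, so a change of pseudocount, filter, libraries or model could not turn a sign. Equal library sums could not turn a rise either. The filter at 50 tested 71 of the rises and 41 of the falls. Called genes numbered 2673 higher and 11 lower with all libraries set to equal sums, 24 and 24 with no filter, 50 and 36 with the filter over all 16 libraries, and 23 and 24 with only the 6 libraries fitted, where fewer samples estimate the spread. There were 53 rises without the mean trend and with robust fitting, and 32 to 77 rises and 26 to 61 falls without 1 library. For the other changes the cause was not tested. The replicate block by shared code gave 60 rises and 46 falls; same-code libraries of the fractions had correlations of deviations of 0.00196, 0.0166 and 0.0202, so the codes were not taken as pairs. The mitochondrial share, J2 minus flow-through, moved from -0.816 to -39.1 percentage points once the 10 highest other features were left out.

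The sign of the log2 difference turned under quantile normalization for Lars2 (1.51), CT010467.1 (5.35), mt-Rnr1 (0.15), Hist1h2ba (4.93), Clu (-0.0058), Hist1h1t (0.067), Malat1 (-0.0025) and Piwil1 (-0.63). It turned with all libraries set to equal sums, where the median gene was at 2.77, for CT010467.1 (3.76), mt-Nd1 (0.95), mt-Nd2 (0.60), mt-Nd5 (3.26), mt-Nd6 (2.72), mt-Co3 (2.58), mt-Co2 (1.4), mt-Atp6 (1.67), Rmrp (1.0), Rpph1 (0.97), Rnu2-10 (1.59), Eef2 (2.80), Hist1h2ba (3.71), Hist1h1t (3.69), Dhx30 (1.17), Drosha (0.40), Acta2 (2.24), Ago2 (1.32) and Spata6 (2.50). Without 1 library the uncalled differences spanned 0 for Hist1h2ba (-0.62 to 0.11), Malat1 (-0.0869 to 1.44), Mir1983 (-1.25 to 1.58), Dicer1 (-0.88 to 1.33), Piwil1 (-0.33 to 0.69), mt-Co2 (-3.53 to 0.49), Stag3 (-0.37 to 1.55) and CT010467.1 (-0.46 to 0.075). One flow-through read is worth 2.0 to 8.31 units, which limits what can be said of genes near 0 there.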
